A study of Homo sapiens with 10 samples.

Results

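Translation initiation and elongation factors were taken as the genes of the deposited table whose symbol starts with EIF1 to EIF6, EEF1 or EEF2. Symbols that start with EIF2AK or EIF4EBP, hyphenated symbols and symbols that end in P or in P and digits were left out. Of 71 symbols that start in this way 57 remained, of 26040 in the table. A filter kept genes that reached 10 in 3 or more libraries, and 54 of the 57 passed it, of 14955 genes in all. EIF1AY was listed at 0 in all 10 libraries, EIF4E1B stayed below 1, and EIF3CL rose above 1 in 1 library only. These 3 genes were not tested.

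The libraries are from U2OS, a human osteosarcoma line in which nutlin-3a activates p53 by freeing it from its ubiquitin ligase MDM2. All cells carried a lentiviral shRNA and had been selected with puromycin at 1 µg/ml. The control line expressed a negative control shRNA and the 3 shARVCF lines expressed different shRNAs against ARVCF, which encodes a p120-related catenin. Each line was treated as a single clone, so an shRNA and its clone cannot be told apart. There was 1 untreated control library, 3 control libraries after 10 µM nutlin-3a for 24 h, 3 untreated shARVCF libraries and 3 shARVCF libraries after the same treatment, with 1 library per line in each shARVCF group. The 3 treated control libraries are of 1 line, and 2 of them carry later library numbers than the other 8 libraries. No label says that they were separate cultures, so p-values that rest on them measure only the spread between these libraries. The design asks how the response to nutlin-3a differs when ARVCF is lowered.

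In translation initiation, eIF1, eIF1A, eIF3 and the ternary complex of eIF2, GTP and initiator tRNA load onto the small ribosomal subunit. The eIF4F proteins, with eIF4E on the cap, eIF4G as scaffold and eIF4A as helicase, bring that complex to the mRNA, and eIF5B joins the large subunit. eEF1A then delivers aminoacyl-tRNA and eEF2 moves the ribosome along the codons. Many mRNAs of the elongation factors and of some eIF3 subunits start with a C followed by a run of pyrimidines, the 5′ TOP (terminal oligopyrimidine) motif, through which mTOR controls their translation.

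The start sites of these genes show which members carry such a start. The 30 bases around the start were read from RefSeq windows (GRCh38.p14, in the direction of the gene), with 15 bases before the start site and 15 from it on. A TOP-like start was counted where the base at the start was C and at least 4 further C or T followed without a break. Only the strand of the gene was read. Capitals mark that run, as far as it lies within the 30 bases. The first 6 sequences belong to members with the run, including EEF1A1 and EEF2. The last 5 belong to members without it that the results turn on.
EEF1A1, chr6:73521018-73521047, minus strand: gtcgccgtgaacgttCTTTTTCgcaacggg
EEF2, chr19:3985449-3985478, minus strand: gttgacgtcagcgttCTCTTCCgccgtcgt
EEF1B2, chr2:206159880-206159909, plus strand: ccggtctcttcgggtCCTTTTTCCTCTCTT
EIF3F, chr11:7987322-7987351, plus strand: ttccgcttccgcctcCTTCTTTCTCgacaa
EIF3K, chr19:38619173-38619202, plus strand: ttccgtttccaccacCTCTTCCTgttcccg
EIF4B, chr12:53006441-53006470, plus strand: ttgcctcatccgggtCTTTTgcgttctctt
EIF4G2, chr11:10808912-10808941, minus strand: cagacacgccttagcgccagcagtgagtcg
EEF2K, chr16:22206263-22206292, plus strand: tgcccgcccgcttctgctcaacctagacca
EIF4E, chr4:98929119-98929148, minus strand: ccttctggagcggttgtgcgatcagatcga
EIF5A2, chr3:170908623-170908652, minus strand: cccgccccgtctcttggaactgccgcggcc
EEF1G, chr11:62573877-62573906, minus strand: tctcccgggcggcttactttgcggcagcgc

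A window was found for 47 members, and 12 of these (25.5%) had a TOP-like start in at least 1 window. EEF1B2 has a second window, which starts with an A and has no run. Of the 63 windows of members, 12 (19%) had such a start. Over the windows of all genes the share was 4.07%, 1429 of 35116, and over the tested genes with a window it was 7%, 774 of 11065. Besides the 6 members printed with the run, the start was found in EIF2A, EIF2D, EIF2S3, EIF3D, EIF3M and EIF4A2. The list of 10 known 5′ TOP members used for the values (EEF1A1, EEF1B2, EEF1D, EEF1G, EEF2, EIF3A, EIF3E, EIF3F, EIF3H and EIF4B) overlaps these 12 only in part. EEF1D, EIF3A, EIF3E and EIF3H of that list had no window and could not be read. Of the list members with a window only EEF1G lacked the run, since its RefSeq start has an A at the first base. A match here is a match of letters at an annotated start and nothing more.

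The labels were checked on ARVCF. Its value was 617.7 in the untreated control library and 291.8, 343.2 and 338.0 in the untreated shARVCF lines, with no overlap (log2 −0.93 ± 0.15, limma adjusted p = 0.0957 against 1 library). After nutlin-3a the control libraries read 2928, 2571 and 2376 and the shARVCF lines 1284, 1188 and 1232, so the knockdown held while the level rose in both. MDM2, a p53 target, rose in both kinds of line, by log2 3.25 ± 0.13 in the shARVCF lines and 2.22 ± 0.19 in the control line. After nutlin-3a it was higher in the shARVCF lines by 1.04 ± 0.13 (limma adjusted p = 3.19e-05). CDKN1A, also a p53 target, rose by 3.11 ± 0.17 and 2.99 ± 0.24, and differed after nutlin-3a by −0.12 ± 0.17 (adjusted p = 0.574). VIM, COL1A1 and SPARC were high, as in mesenchymal cells. Of the osteoblast genes on the same list, RUNX2 read 328.4 to 1444 and ALPL 122.6 to 1502. SP7 and BGLAP stayed near 0, and the collagen gene COL1A2 did not go above 15.54. No blood marker went above 12.74. Of the epithelial markers, KRT8 and KRT18 read 4204 or more in all libraries, EPCAM 43.8 to 142.5, CDH1 2.31 to 34.7 and KRT19 0 to 19.3. The scaled library totals ran from 17821751 to 19903778. The libraries also differed in how their values depend on transcript length. Over 14742 genes, the deviation of a library from the mean of all libraries had a Spearman correlation with spliced length of −0.517, −0.444 and −0.463 in the treated control libraries and of 0.252 to 0.352 in the other 7. Long genes therefore read low and short genes read high in those 3 libraries, and every comparison with them carries this. The nutlin-3a effect in the control line also correlated with GC over the same genes (Spearman 0.375). Values after removal of each library's trend with length and GC are given beside the results that it moves. For this trend, treatment, line and library preparation cannot be told apart. Nor can a change in all cells be told apart from a change in some of them, since each library is RNA of a whole culture.

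Together the members took 2.32% to 2.46% of the scaled total in the 4 untreated libraries. They took 2.56%, 2.56% and 2.73% in the treated shARVCF libraries and 2.80%, 2.66% and 2.65% in the treated control libraries. The share was higher in all 6 treated libraries than in any untreated one. EEF1A1 alone made up 0.817% to 0.854% of the untreated totals. Per kilobase of the longest transcript, EEF1A1 had the highest mean level of the members, 38520 scaled fragments per kb, followed by EEF1G at 26330, EEF2 at 14860, EIF4A1 at 8698 and EEF1B2 at 7810. EIF5A2, EIF4E and EEF2K were near the low end of the tested members, at 75.4, 61.9 and 48.0 scaled fragments per kb.

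**Figure D1:**
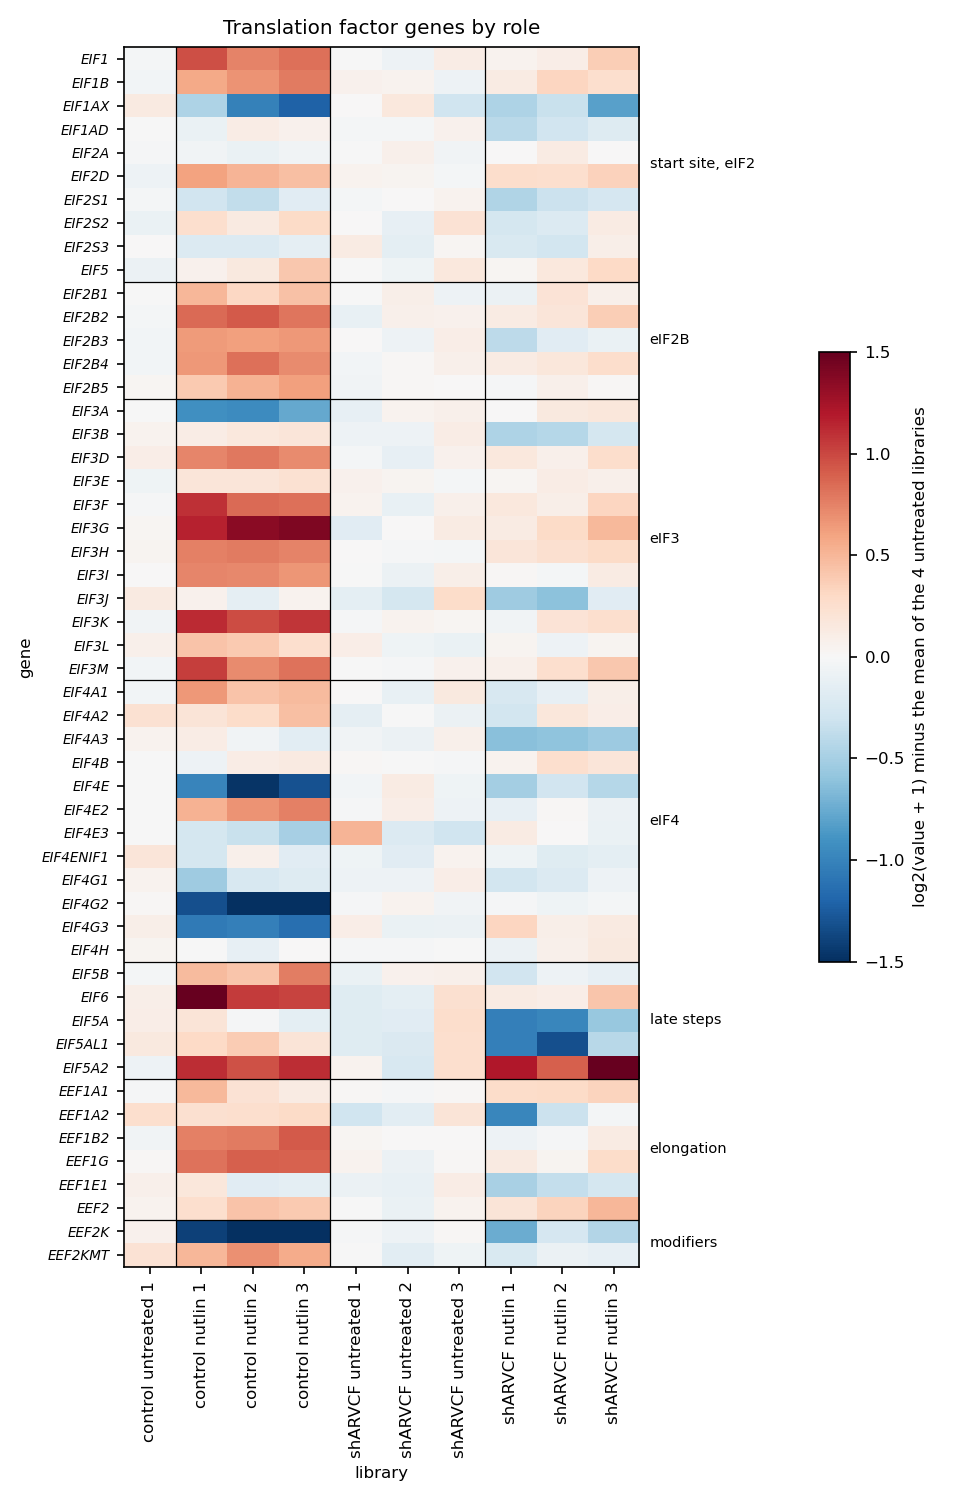
Level of 52 tested members in each of the 10 libraries, as log2(value + 1) minus the mean of the 4 untreated libraries, with genes in rows by role and libraries in columns; colours stop at 1.5 in either direction. The 3 treated control libraries stand apart with EIF3G, EIF6 and EIF3K high and EIF4G2, EIF4G3, EIF4E and EEF2K low, and EIF5A2 is high in all 6 treated libraries. EIF3C and EEF1D are left out because their values are unstable.

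Nutlin-3a changed 14 of the 54 tested members in the shARVCF lines, 6 higher and 8 lower, by limma with Benjamini-Hochberg adjusted p under 0.05. Among all tested genes 42.8% were called in that comparison, 21.0% higher and 21.7% lower. In the control line 28 members were called, 22 higher and 6 lower, beside 57.1% of all genes, 25.1% higher and 32.0% lower. The members' median log2 fold change was 0.03 in the shARVCF lines, where that of all genes was −0.0017, and 0.30 in the control line, where that of all genes was −0.10. Another scaling changed the split of the shARVCF calls, from 6 higher and 8 lower to 10 higher and 7 lower when libraries were scaled by their upper quartile. Single libraries changed it too, to 1 higher and 7 lower without shARVCF untreated replicate 2 and to 1 higher and 10 lower without shARVCF nutlin-3a replicate 3. Upper-quartile scaling moved the median of all genes in the control line up by 0.17, and library totals moved it down by 0.12. No called member changed direction under the other scalings.

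Under nutlin-3a, 5 members were higher and 32 lower in the shARVCF lines than in the control line, while 58.4% of all genes were called, 32.3% higher and 26.1% lower. The members' median difference was −0.40, and that of all genes 0.06. Without the drug no member differed between the shARVCF lines and the 1 control library by limma, and none had an unadjusted p under 0.05. Of all genes 0.0201% were called there, 3 in number, and 237 had an unadjusted p under 0.05. The difference of the 2 nutlin-3a effects, shARVCF minus control, was called for 27 members, 5 higher and 22 lower, beside 31.8% of all genes, 19.3% higher and 12.5% lower. This difference and the comparison under nutlin-3a share the treated libraries, and both nutlin-3a comparisons enter it.

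**Figure D2:**
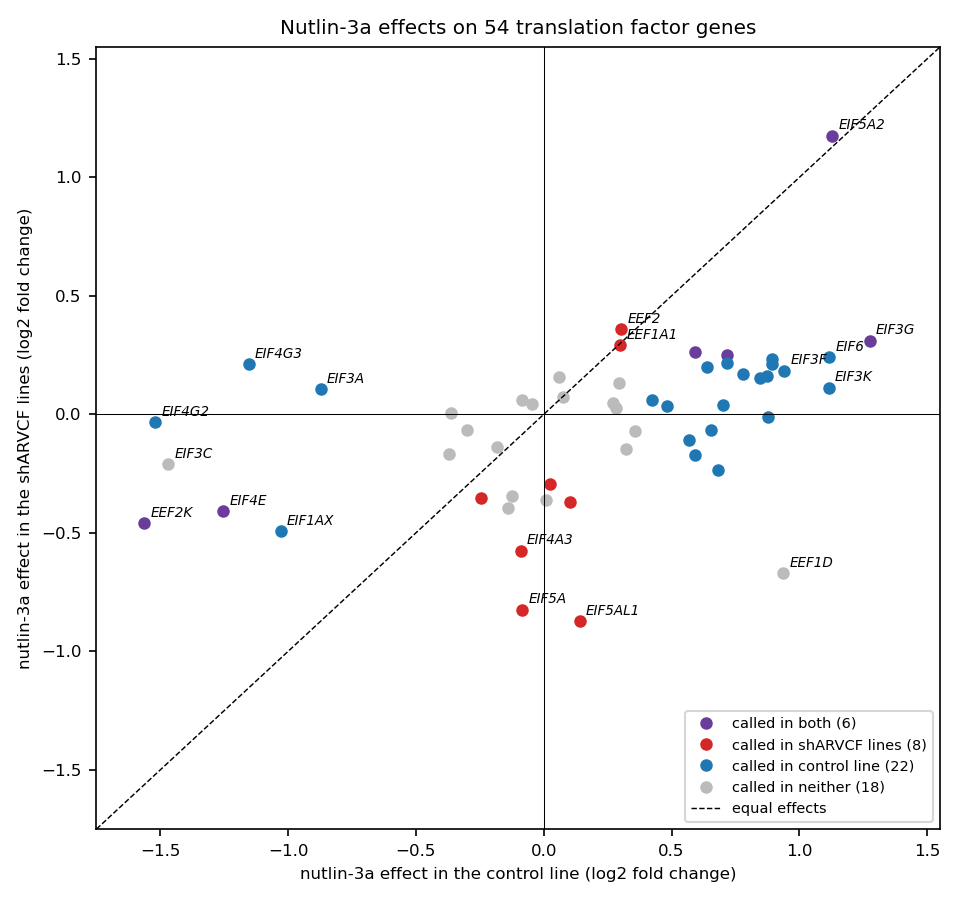
Log2 fold change of nutlin-3a against untreated for the 54 tested members, in the control line (x axis) and in the shARVCF lines (y axis), coloured by the comparison in which a member was called, with a dashed line of equal effects. EIF5A2 lies near that line in the upper right corner, EIF4G2, EIF4G3 and EIF3A lie far to the left at a shARVCF effect near 0, and EIF5A and EIF4A3 lie well below 0 on the y axis at a control effect near 0.

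The 2 nutlin-3a effects, which share no library, had a Pearson correlation of 0.425 and a Spearman correlation of 0.545 over the 54 members. The points share their libraries within each comparison, so this is a description. Of the members 4 were called higher in both (EIF2D, EIF3G, EIF3H and EIF5A2) and 2 lower in both (EEF2K and EIF4E). Another 8 were called in the shARVCF lines alone, 22 in the control line alone and 18 in neither, and no member had opposite calls. Of all genes 42.8% and 57.1% were called in the 2 comparisons. How these calls overlap over all genes was not computed, so nothing particular to the members is drawn from these counts.

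EEF1A1, EEF1G and EEF2 were the 3 most abundant members per kilobase. EEF1A1, which carries aminoacyl-tRNA to the ribosome, read 148400 in the untreated control library and 153200, 148700 and 152800 in the untreated shARVCF lines. After nutlin-3a it read 182700, 184400 and 189500 in the shARVCF lines, and the control libraries read 210500, 175800 and 164700. In this scaling all 6 treated libraries lay above all untreated ones. As a share of the library total this did not hold, since control nutlin-3a replicate 3 (0.844%) lay below untreated shARVCF lines 1 and 3 (0.854% and 0.852%). The log2 fold change was 0.29 ± 0.10 (SE, n = 3 and 3; limma adjusted p = 0.0398) in the shARVCF lines and 0.30 ± 0.15 (n = 3 and 1; adjusted p = 0.102) in the control line. The call in the shARVCF lines was at the threshold: it was lost when any 1 of the 6 shARVCF libraries was left out, with adjusted p from 0.0688 to 0.103, and without control nutlin-3a replicate 2, with adjusted p = 0.0532. After trend removal the effect in the control line was 0.91, or 0.95 with the median transcript, and was called with both.

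EEF2, the translocase, read 41820 in the untreated control library and 40210, 37590 and 41700 in the untreated shARVCF lines. After nutlin-3a the shARVCF lines read 46050, 50960 and 56750, and the control libraries 47870, 54360 and 52730. Treated and untreated libraries did not overlap in either kind of line. EEF2 rose by 0.36 ± 0.10 on the log2 scale in the shARVCF lines (limma adjusted p = 0.0135) and the value in the control line was 0.30 ± 0.14 (adjusted p = 0.0934, and 0.0474 with a replicate block on the shRNA line), or 0.08 and, with the median transcript, 0.23 after trend removal, not called. That block has no term for the control libraries, so it left the value in the control line unchanged and lowered its standard error. Without shARVCF untreated replicate 2 the limma adjusted p in the shARVCF lines was 0.0553, and without shARVCF nutlin-3a replicate 3 it was 0.0561. Under nutlin-3a EEF1A1 and EEF2 differed between the lines by 0.02 ± 0.10 and −0.01 ± 0.10, with overlapping libraries. After trend removal EEF1A1 was lower in the shARVCF lines there (−0.52, limma adjusted p = 0.00145, or −0.56 with the median transcript, adjusted p = 0.000841). EEF2 was higher with the longest transcript (0.27, adjusted p = 0.0468) and not called with the median one (0.11).

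EEF1B2 and EEF1G, subunits of the exchange factor that reloads eEF1A with GTP, did otherwise. EEF1G read 31690 in the untreated control library and 54990, 58400 and 57750 after nutlin-3a, a rise of 0.85 ± 0.13 on the log2 scale (limma adjusted p = 0.000147). The shARVCF lines went from 32460, 29550 and 31710 to 34390, 32200 and 37790, with overlap (0.15 ± 0.09, adjusted p = 0.207). EEF1B2 rose by 1.84-fold in the control line, from 6693 to 11770, 11960 and 13190, and in the shARVCF lines it read 7118, 7008 and 7009 untreated and 6582, 6868 and 7555 treated. Trend removal reduced the effects in the control line to 0.28 for EEF1G, which was no longer called (adjusted p = 0.0936), and to 0.48 for EEF1B2, which was. With the median transcript the EEF1G effect was 0.46 and called (adjusted p = 0.00975). The elongation list held 7 genes, with EEF1E1 counted by its EEF1 symbol. Of these, 2 were called higher in each kind of line, beside the 21.0% and 25.1% of all genes called higher there. They were EEF1A1 and EEF2 in the shARVCF lines and EEF1B2 and EEF1G in the control line. After trend removal those called in the control line were EEF1A1 and EEF1B2, and with the median transcript EEF1G as well. EEF1A2, the eEF1A form of nerve and muscle, read 6002 in the untreated control library and 4101, 4523 and 5768 in the untreated shARVCF lines, against 2551, 4031 and 4919 in the treated shARVCF lines. Its effect in the shARVCF lines, −0.36, was called with the replicate block (limma adjusted p = 0.00907) but not without it. EEF1D read 889.1 in untreated shARVCF line 1 and 54.38 to 216.3 elsewhere, and no effect is drawn from it.

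EEF2K, the kinase that phosphorylates eEF2 and slows elongation, was lower after nutlin-3a in both kinds of line. It read 514.2 untreated and 184.9, 171.7 and 164.0 treated in the control line, a 2.96-fold decrease (log2 −1.56 ± 0.19, limma adjusted p = 2.39e-05). The shARVCF lines read 484.4, 465.9 and 495.7 untreated and 290.8, 410.1 and 361.1 treated, with no overlap (−0.46 ± 0.14, adjusted p = 0.0167). Line 1 had the lowest treated value, and without shARVCF nutlin-3a replicate 1 the effect was −0.32 with adjusted p = 0.0709. The treated shARVCF lines lay above the treated control libraries by 1.01 ± 0.14 (adjusted p = 4.4e-05). With the trend removed the decrease in the control line was −0.87, or −0.67 with the median transcript, and the difference between the lines was 0.31 (adjusted p = 0.0919), or 0.12.

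**Figure D3:**
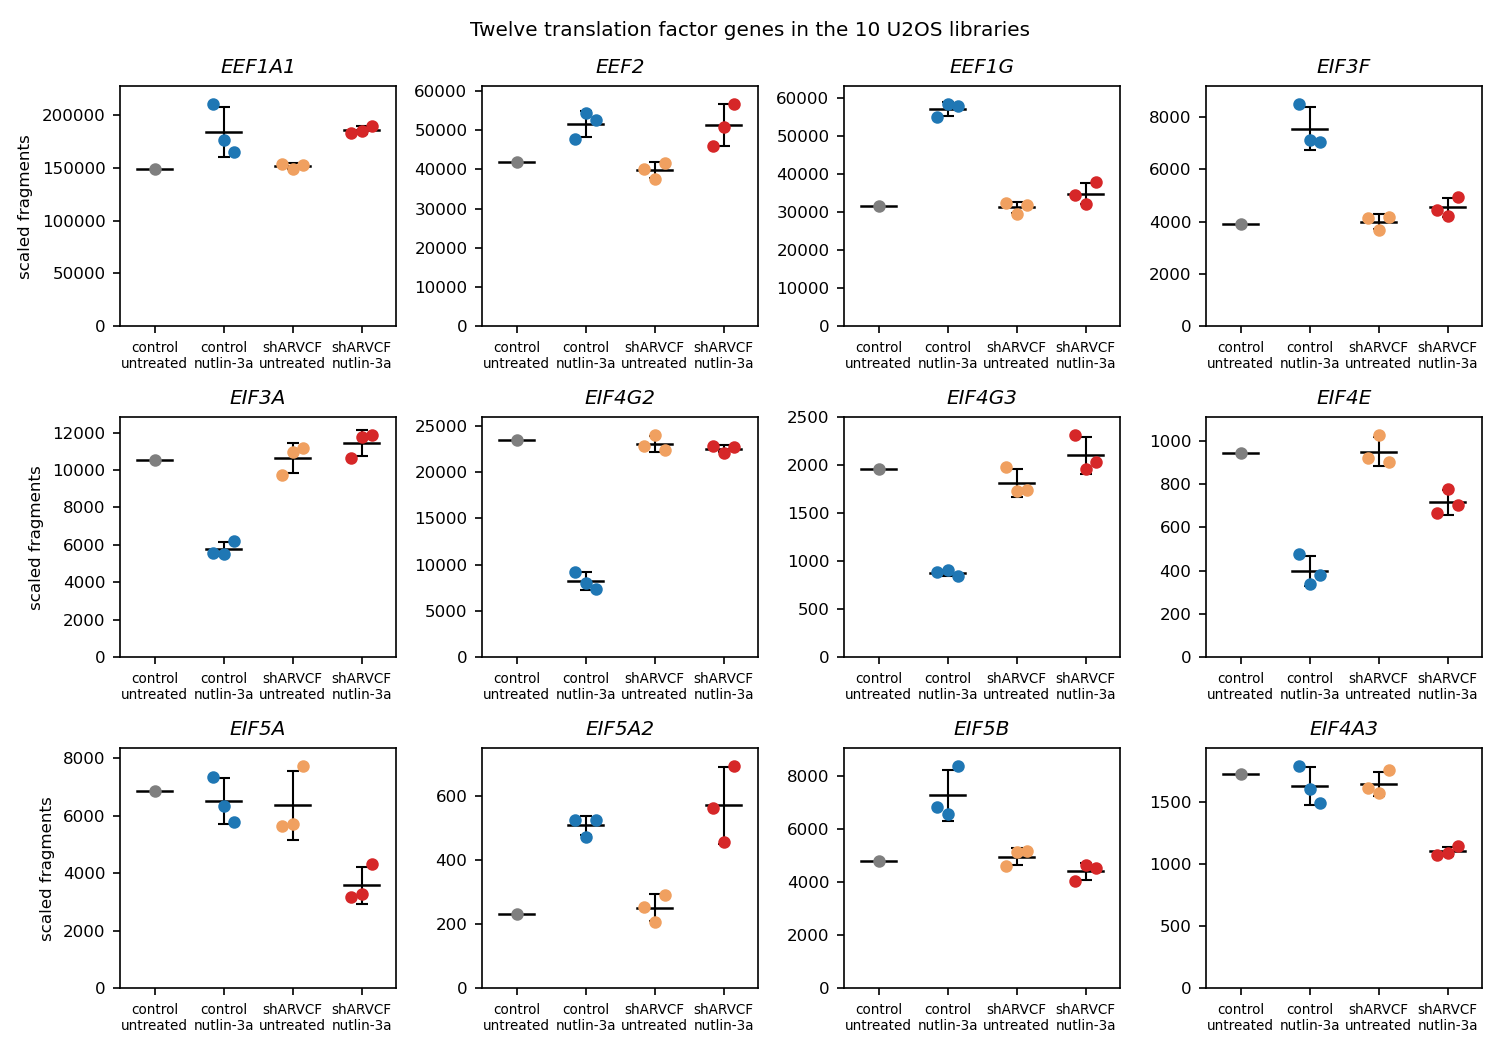
Scaled fragments of 12 members in every library, with a panel per gene and an axis from 0; points are libraries, black bars group means, and error bars SD over the 3 libraries of a group (the untreated control has 1 library). EIF4G2, EIF4G3 and EIF3A are low in the treated control libraries alone, EIF5A and EIF4A3 read lowest in the treated shARVCF lines, and EIF5A2 is high in both treated groups.

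The eIF4 genes held the members with the widest difference between the lines. EIF4G2, also known as DAP5, is a scaffold that lacks the eIF4E binding site of eIF4G1. It lies at chr11:10797050-10809110 on the minus strand, with 22 exons in the longest transcript. It read 23460 in the untreated control library and 9248, 8076 and 7342 after nutlin-3a. The shARVCF lines read 22800, 24020 and 22370 untreated and 22800, 22100 and 22670 treated. EIF4G2 fell 2.87-fold in the control line (log2 −1.52 ± 0.14, limma adjusted p = 1.88e-06), while the effect in the shARVCF lines was −0.03 ± 0.10. Under nutlin-3a it was 2.75-fold higher in the shARVCF lines (1.46 ± 0.10, adjusted p = 1.71e-07), and the difference of the effects was 1.49 ± 0.17 (adjusted p = 7.3e-05). After trend removal these were −0.86 in the control line, 0.91 under nutlin-3a and 0.97 for the difference, and with the median transcript −0.71, 0.75 and 0.82, and all were still called.

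EIF4G3, a cap-dependent scaffold of the eIF4G1 kind, was also low in the treated control libraries. It read 1958 untreated and 885.4, 906.6 and 844.3 treated in the control line, and 1979, 1726 and 1736 untreated and 2315, 1955 and 2034 treated in the shARVCF lines. Its log2 fold change was −1.16 ± 0.13 in the control line (limma adjusted p = 1.51e-05) and 0.21 ± 0.10 in the shARVCF lines (adjusted p = 0.0933). The latter was called with the replicate block (adjusted p = 0.0365) and after trend removal (0.26, adjusted p = 0.0452, or 0.27 with the median transcript). After trend removal the effect in the control line was −0.35, or −0.22 with the median transcript, where it was no longer called (adjusted p = 0.195). EIF4G1, the main scaffold of eIF4F, read 15770 untreated and 10580, 12890 and 13340 treated in the control line, a change of −0.37 ± 0.15 that missed the threshold (adjusted p = 0.0555) and was called with the replicate block (adjusted p = 0.0289). The block has no term for the control libraries, so it left that change the same and lowered its standard error to 0.13. After trend removal the change was −0.10, or 0.02 with the median transcript. EIF4G1 read 14470, 14460 and 16390 untreated and 12640, 13230 and 14440 treated in the shARVCF lines (−0.17 ± 0.11, limma adjusted p = 0.234). The difference between the 3 genes was not itself tested.

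EIF4E, the cap-binding protein, was called lower in both kinds of line in the values as deposited. It read 942.6 untreated and 475.3, 340.0 and 380.8 treated in the control line (−1.25 ± 0.18, limma adjusted p = 8.05e-05). The shARVCF libraries read 918.6, 1027 and 903.6 untreated and 665.7, 776.2 and 702.8 treated (−0.41 ± 0.13, adjusted p = 0.0205). The latter call was lost without shARVCF untreated replicate 2 (adjusted p = 0.08) and without shARVCF nutlin-3a replicate 1 (adjusted p = 0.0693). EIF4E has the longest annotated transcript of the members, 11523 bases, but a median transcript of 1114.5 bases. Which of these describes its mRNA sets the corrected value in the control line, 0.00052 with the longest and −1.24 with the median transcript, and no direction is drawn from it there.

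Among the helicases, EIF4A1 rose in the control line from 13270 to 21530, 18480 and 19060 (0.57 ± 0.16, limma adjusted p = 0.00793), and was not called after trend removal with the longest transcript (0.31, adjusted p = 0.0749), but was with the median one (0.49, adjusted p = 0.0122). EIF4A1 in the shARVCF lines read 13800, 12670 and 15180 untreated and 11600, 12610 and 14530 treated. EIF4A2, its close paralog, had effects of 0.07 ± 0.12 and 0.08 ± 0.17 in the shARVCF and control lines and was called in neither, though it was in the control line after trend removal with the median transcript (0.48, adjusted p = 0.0235). EIF4A3, the helicase of the exon junction complex, fell in the shARVCF lines. It read 1608, 1568 and 1757 untreated and 1074, 1091 and 1143 treated, a 1.49-fold decrease seen in each line (−0.57 ± 0.09, adjusted p = 0.000309). The control line read 1728 untreated and 1790, 1607 and 1487 treated, with overlap (−0.09 ± 0.13), and after trend removal −0.43, called, or −0.26 with the median transcript, not called. The call in the shARVCF lines held under all alternatives that were run. The difference of the EIF4A3 effects was −0.48 (adjusted p = 0.0369) and was not called after trend removal (−0.15, adjusted p = 0.539). EIF4B, a cofactor of eIF4A, read between 13780 and 17170 in all libraries and was called in no comparison of the values as deposited. After trend removal with the longest transcript it was called in both kinds of line (0.24 and 0.61), and with the median transcript in neither (0.19 and 0.16).

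EIF5A, the hypusinated factor that helps ribosomes through difficult peptide bonds, and its paralog EIF5A2 moved in opposite directions in the shARVCF lines. EIF5A read 5647, 5698 and 7739 untreated and 3165, 3275 and 4329 treated, a 1.77-fold decrease (log2 −0.82 ± 0.15, limma adjusted p = 0.000955). The log2 ratios within the 3 lines were −0.84, −0.80 and −0.84. EIF5A2 read 253.4, 206.9 and 290.9 untreated and 561.7, 455.0 and 693.3 treated, a 2.26-fold rise (1.18 ± 0.16, adjusted p = 9.61e-05), with ratios of 1.15, 1.13 and 1.25. Both calls held under all alternatives that were run. EIF5A2 also rose in the control line, from 231.3 to 525.2, 472.8 and 524.5 (1.13 ± 0.23, adjusted p = 0.0012), and the difference of the effects was 0.05 ± 0.28. After trend removal its effect in the control line was 2.33, or 0.94 with the median transcript, and the difference was −0.86, or 0.25, not called. EIF5A in the control line read 6862 untreated and 7365, 6348 and 5797 treated, with overlap (−0.08 ± 0.22). The difference of the EIF5A effects was −0.74 ± 0.26 and missed the threshold (adjusted p = 0.0512), but was called with the replicate block (adjusted p = 0.00322). After trend removal EIF5A was −0.76 in the control line, and −0.66 with the median transcript, both called, and the difference of the effects was −0.11 and −0.21. The EIF5A value was 22.3 to 29.7 times that of EIF5A2 in untreated libraries, 11.1 to 14.0 times in treated control libraries and 5.63 to 7.2 times in treated shARVCF libraries, and these ranges did not overlap. This is a ratio of scaled fragments without length correction, and the treated control libraries carry the length trend. After trend removal the shARVCF minus control difference under nutlin-3a was −0.22 for EIF5A and −0.86 for EIF5A2. With the median transcript it was −0.31 and 0.26. The order of the 2 treated groups in this ratio therefore depends on the transcript used. EIF5AL1 has a sequence close to that of EIF5A, so its reads cannot be assigned with confidence. It fell beside EIF5A in the shARVCF lines (−0.87 ± 0.21, adjusted p = 0.0049).

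DHPS and DOHH, the enzymes that make hypusine on eIF5A, belong to the list of other translation genes. DOHH rose by 0.49 ± 0.14 in the shARVCF lines (limma adjusted p = 0.0141) and by 1.6 ± 0.20 in the control line (adjusted p = 2.62e-05). DHPS fell by 0.51 in the shARVCF lines (adjusted p = 0.00117), and its value in the control line was 0.27 ± 0.14 (adjusted p = 0.108). After trend removal that value turned to −0.46 (adjusted p = 0.0128), or −0.38 with the median transcript (adjusted p = 0.0293), and DOHH in the control line was 0.87, or 1.01.

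EIF5B, the GTPase of subunit joining, read 4796 untreated and 6840, 6576 and 8375 treated in the control line (0.59 ± 0.15, limma adjusted p = 0.00529). It read 4594, 5115 and 5155 untreated and 4034, 4650 and 4511 treated in the shARVCF lines (−0.17 ± 0.11, adjusted p = 0.221). Its longest transcript has 5777 bases, and trend removal raised its effect in the control line to 1.65. EIF6, which keeps the large subunit from joining early, rose in the control line from 1835 to 5059, 3583 and 3480 (1.12 ± 0.23, adjusted p = 0.00118). Its transcript is short, 1289 bases, and after trend removal the effect was 0.35 and no longer called (adjusted p = 0.143), nor was it with the median transcript (0.44, adjusted p = 0.0863).

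Of the eIF3 genes, which encode the scaffold on the small subunit, 13 were tested. Of these, 7 were called higher and 1 lower in the control line, and 2 higher and 1 lower in the shARVCF lines, where 57.1% and 42.8% of all genes were called. After trend removal the counts were 7 and 0 in the control line and 4 and 1 in the shARVCF lines, and with the median transcript 9 and 0, and 3 and 1. Of all genes 49.9% and 45.1% were then called, in the same order, and 50.3% and 45.1% with the median transcript. EIF3G rose most in the control line, from 2069 to 4521, 5179 and 5365, or 2.42-fold (log2 standard error 0.16, limma adjusted p = 3.3e-05). Its shARVCF values were 1797, 2040 and 2211 untreated and 2200, 2478 and 2838 treated, and the groups overlapped. That smaller effect (0.31 ± 0.12, adjusted p = 0.0461) was not called without shARVCF untreated replicate 1 or 2, shARVCF nutlin-3a replicate 2 or 3, or control nutlin-3a replicate 2 or 3 (adjusted p up to 0.177 and down to 0.0562). After trend removal it was 0.22, not called (adjusted p = 0.129), and the effect in the control line was 0.40, not called (adjusted p = 0.0513), or 0.49 with the median transcript, called (adjusted p = 0.0228). EIF3K rose from 2632 to 5944, 5405 and 5768 in the control line, and its effect there stayed called after trend removal, at 0.58 and, with the median transcript, at 0.50.

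EIF3F, a 5′ TOP member, rose in the control line from 3922 to 8505, 7130 and 7028 (0.94 ± 0.15, limma adjusted p = 0.000159). Its shARVCF values were 4134, 3664 and 4188 untreated and 4441, 4227 and 4959 treated, with treated values above the untreated ones but a change that missed the threshold (0.18 ± 0.10, adjusted p = 0.176). After trend removal with the longest transcript it was 0.30 and called (adjusted p = 0.0358), and with the median one it was not. After trend removal the effect in the control line was 2.04 with the longest transcript and 0.46 with the median one. EIF3H rose in both, by 0.25 ± 0.08 (adjusted p = 0.0207) in the shARVCF lines and 0.72 ± 0.11 (adjusted p = 0.00014) in the control line. Its shARVCF call was lost without any 1 of 5 of the 6 shARVCF libraries, with adjusted p from 0.0527 to 0.0705. In the values as deposited EIF3E had effects of 0.05 in the shARVCF lines and 0.27 in the control line, called in neither. The latter was called with the replicate block (limma adjusted p = 0.0387), which left the effect there unchanged and lowered its standard error. After trend removal both EIF3E effects were called, at 0.25 (adjusted p = 0.0439) and 0.40 (adjusted p = 0.021), and with the median transcript at 0.26 and 0.57. EIF3M rose by 0.89 in the control line, and by 1.90 after trend removal.

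EIF3A, the largest eIF3 subunit and a 5′ TOP member on the list, was the only eIF3 gene called lower in the control line. It read 10560 untreated and 5590, 5525 and 6204 treated there, and 9719, 10970 and 11200 untreated and 10650, 11770 and 11880 treated in the shARVCF lines. The change in the control line was −0.87 ± 0.13 (limma adjusted p = 0.000127). The difference between the lines under nutlin-3a was 0.99 ± 0.09 (adjusted p = 2.77e-06). With the trend removed these were 0.08 (adjusted p = 0.611) and 0.10 (adjusted p = 0.428), so the direction in the control line turned and neither was called. EIF3B, an RNA-binding core subunit, fell in the shARVCF lines from 7030, 7013 and 7985 to 5364, 5504 and 6154 (−0.37 ± 0.09, adjusted p = 0.00544), and read 7665 untreated and 7995, 8301 and 8410 treated in the control line (0.10 ± 0.13). The shARVCF call held under all alternatives that were run. EIF3C stayed between 0.7786 and 25.58 and shares its sequence with EIF3CL, so no effect is drawn from it.

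All 5 subunits of eIF2B, the exchange factor that reloads eIF2 with GTP and the point at which stress kinases slow initiation, rose in the control line. The log2 fold changes were 0.42 for EIF2B1, 0.89 for EIF2B2, 0.68 for EIF2B3, 0.78 for EIF2B4 and 0.48 for EIF2B5. Of all genes 25.1% were called higher there. EIF2B2 read 1719 untreated and 3182, 3341 and 3070 treated. EIF2B5, the catalytic subunit, read 1307 untreated and 1683, 1837 and 1966 treated. In the values as deposited none of the 5 was called in the shARVCF lines, where their effects lay between −0.23 and 0.21. EIF2B2 was called higher there with the replicate block (limma adjusted p = 0.0423) and after trend removal (0.30, or 0.31 with the median transcript). All 5 were lower in the treated shARVCF lines than in the treated control libraries (median −0.55), beside 26.1% of all genes. After trend removal EIF2B4 was no longer called in that comparison (−0.03, limma adjusted p = 0.776). With the median transcript it was −0.23 and called (adjusted p = 0.0404). After trend removal 4 of the 5 remained called in the control line, all but EIF2B4 (0.27, limma adjusted p = 0.0693), and with the median transcript all 5. Library total scaling ended the call of EIF2B1 in the control line (0.30, adjusted p = 0.0749) and between the lines under nutlin-3a (−0.24, adjusted p = 0.0515).

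The list of start site choice and the ternary complex held 10 tested genes, with EIF1AD counted by its EIF1 symbol. In the shARVCF lines 1 was called higher and 2 lower, beside 21.0% and 21.7% of all genes. The control line had 3 higher and 1 lower, beside 25.1% and 32.0%. Trend removal gave shARVCF counts of 2 and 0, beside 24.4% and 20.7% of all genes. In the control line it gave 6 and 0, beside 28.7% and 21.1%. With the median transcript the counts were 4 and 1 (24.4% and 20.7% of all genes), and 8 and 1 (29.1% and 21.3%). EIF2S1, the alpha subunit of eIF2 whose phosphorylation slows initiation, read 4613, 4736 and 4889 untreated and 3433, 3758 and 3957 treated in the shARVCF lines (−0.35 ± 0.09, limma adjusted p = 0.00661). It read 4609 untreated and 3850, 3635 and 4196 treated in the control line (−0.25 ± 0.13, adjusted p = 0.115). The direction in the control line turned after trend removal, to 0.64 (adjusted p = 0.0011), or 0.74 with the median transcript (adjusted p = 0.000523). After trend removal the shARVCF effect was −0.14 and not called (adjusted p = 0.214), and its exons overlap those of ATP6V1D on the other strand. EIF2D, a factor that can place initiator tRNA without GTP, rose in both kinds of line, by 0.26 and 0.59 (0.30 after trend removal), and the shARVCF call was lost without shARVCF untreated replicate 2 or 3 or shARVCF nutlin-3a replicate 3 (adjusted p from 0.0546 to 0.0802). EIF1, which keeps start codon choice strict, rose in the control line from 6440 to 12860, 10980 and 11610 (0.87 ± 0.15, adjusted p = 0.00034). EIF1AX read 573.8 untreated and 379.0, 258.9 and 225.3 treated there (−1.03 ± 0.28, adjusted p = 0.00779), with a value of −0.0033 after trend removal, or −0.35 with the median transcript, not called. Without both control nutlin-3a libraries with later numbers its effect was −0.60 (adjusted p = 0.112).

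**Figure D4:**
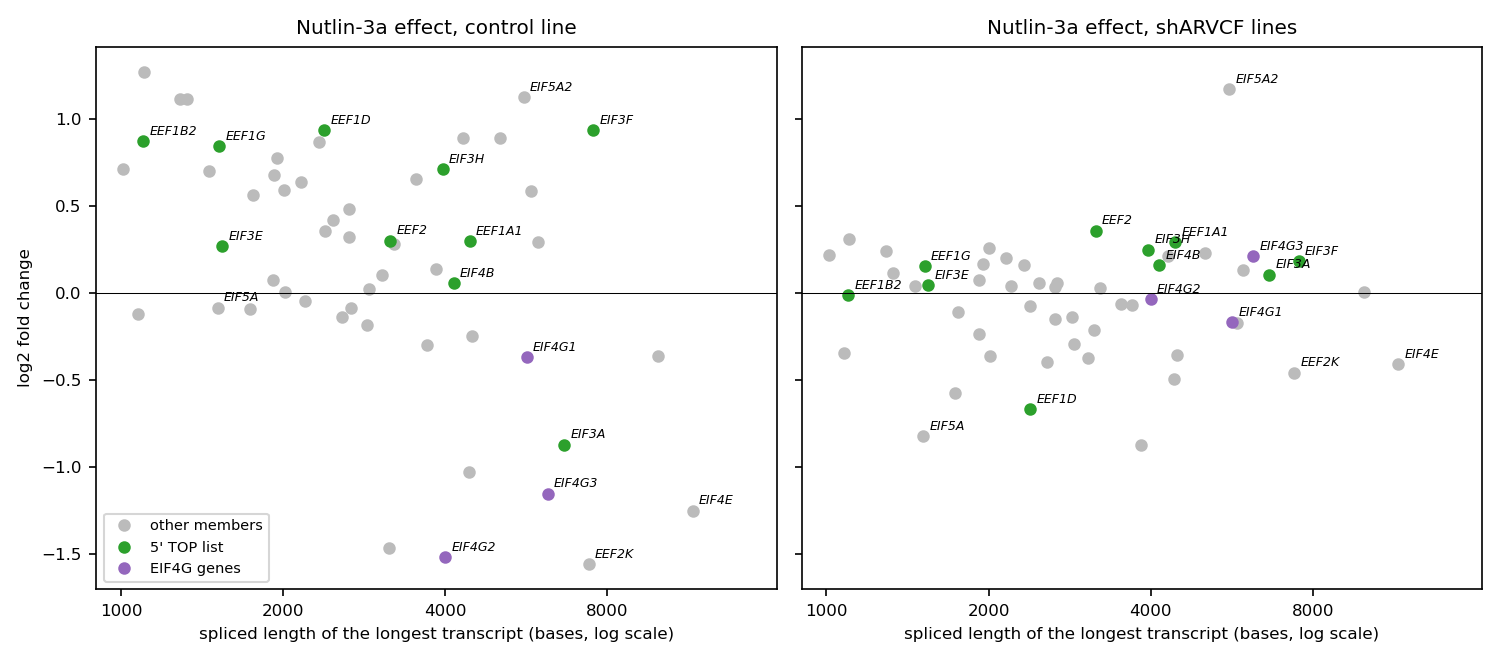
Log2 fold change of nutlin-3a against untreated (y axis) by spliced length of the longest transcript in bases (x axis, log scale) for the 54 tested members, in the control line (left) and in the shARVCF lines (right), with 5′ TOP list members in green and EIF4G genes in purple. Effects fall with length in the left panel, with EIF3F and EIF5A2 above the others at their length, and show no slope in the right panel.

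The effect of length could be read over the members as over all genes. The Spearman correlation of the nutlin-3a effect with spliced length was −0.393 over the 54 members and −0.429 over 14742 genes in the control line, and −0.0259 and −0.0245 in the shARVCF lines. With GC of the longest transcript it was 0.187 and 0.375 in the control line, and −0.0127 and 0.102 in the shARVCF lines. After trend removal the correlation with GC in the control line was −0.412 over the members and −0.032 over all genes. With the median transcript it was −0.331 and 0.00203. The corrected values of the members thus still varied with GC. In the control line the 18 shortest members (1010 to 2155 bases) had 12 higher and 0 lower calls, with a median of 0.66. The 18 members of middle length (2198 to 3840 bases) had 4 higher and 0 lower. The 18 longest (3959 to 11523 bases) had 6 higher and 6 lower, with a median of −0.09, and held all 6 members that fell. Of all genes of any length 25.1% were called higher and 32.0% lower there. After trend removal these sets of members had, in the same order, 7 higher and 2 lower, 6 higher and 0 lower, and 11 higher and 3 lower calls. The shares of all genes were then 28.7% higher and 21.1% lower.

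The 10 members of the 5′ TOP list had 3 higher and 0 lower calls in the shARVCF lines (EEF1A1, EEF2 and EIF3H), with a median effect of 0.16. The other 44 had 3 higher and 8 lower calls, with a median of −0.05, and of all genes 21.0% were called higher and 21.7% lower. Each of the 3 calls on the list was lost when certain single libraries were left out. So were those of EEF2K, EIF1AD, EIF2D, EIF3G and EIF4E among the other members. Trend removal with the longest transcript added EIF3E, EIF3F and EIF4B on the list, all higher. Among the others it added EIF2A, EIF2B2, EIF3M and EIF4G3, also higher, and ended the calls of EIF1AD, EIF2S1 and EIF3G. The list in the control line had 4 higher calls and 1 lower, EIF3A, and a median of 0.51, beside 18 higher and 5 lower and a median of 0.21 in the other members and 25.1% and 32.0% of all genes. That median of 0.51 includes EEF1D (0.94 ± 1.48), from which no effect is drawn. Without EEF1D the middle member of the list is EEF2, at 0.30. The 3 EIF4G genes had medians of −0.03 and −1.16. With the trend removed in the control line the list had 6 higher and 0 lower calls and a median of 0.44, and the other 44 members 18 higher and 5 lower and a median of 0.305. The EIF4G genes then had 0 higher and 2 lower calls and a median of −0.35. Grouped by the letters at the start site instead, the 12 members with a TOP-like start had 3 higher and 0 lower calls in the shARVCF lines and a median of 0.17, and the 33 tested members with a window that lacks it had 1 higher and 8 lower calls and a median of −0.07. The 3 higher calls with a TOP-like start, of EEF1A1, EEF2 and EIF2D, were each lost when certain single libraries were left out. Counts in the control line were 6 higher and 0 lower against 14 higher and 5 lower. These are counts within lists chosen with earlier results known, and the lists were not tested against each other.

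**Figure D5:**
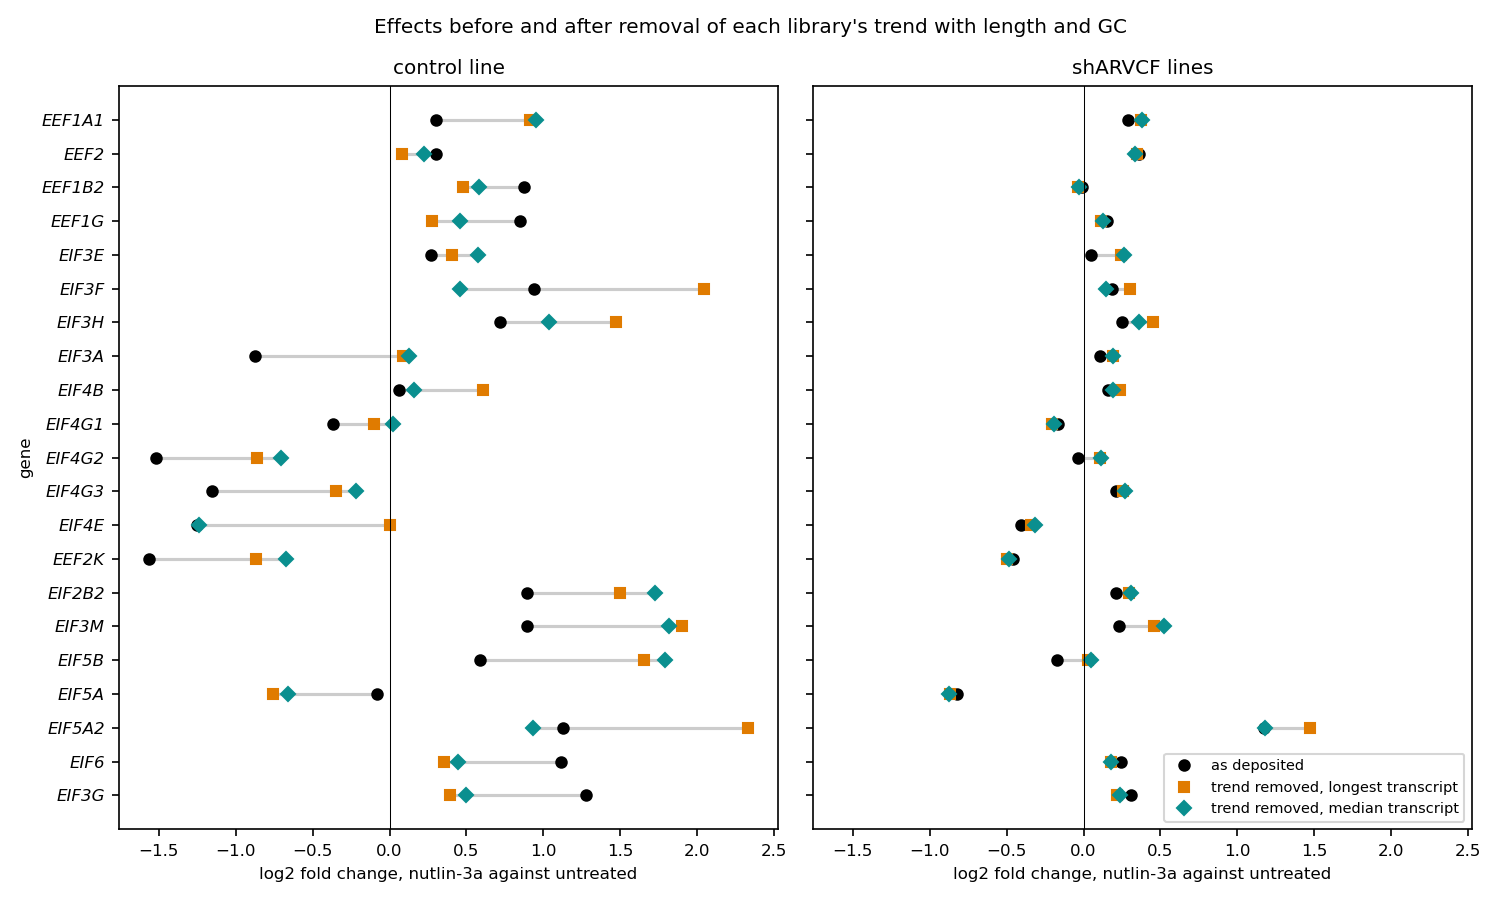
Nutlin-3a effect of 21 members as log2 fold change in the control line (left) and the shARVCF lines (right), from the values as deposited (circles) and after removal of each library's trend with length and GC, by the longest (squares) or the median (diamonds) transcript. In the control line EIF3A moves from −0.87 to 0.08 and EIF4G2 from −1.52 to −0.86, and in the shARVCF lines the marks lie close together for most members, EIF5A2 among the exceptions.

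Correcting for the trend left the members' counts in the control line at 24 higher and 5 lower, when 49.9% of all genes were called, 28.7% higher and 21.1% lower. By the median transcript it was 32 higher and 5 lower, beside 50.3%, 29.1% higher and 21.3% lower. Under nutlin-3a the counts were 3 higher and 32 lower in the shARVCF lines against the control line, beside 38.9% of all genes, 15.9% higher and 23.0% lower. EIF4G2, EIF4G3 and EEF2 were the 3 higher. By the median transcript the counts were 3 and 34, beside 41.9%, 16.9% higher and 24.9% lower, with EIF4E in the place of EEF2. The difference of the effects had 2 higher and 13 lower calls, beside 13.5% of all genes, 5.29% higher and 8.26% lower. By the median transcript there were 2 higher and 17 lower, beside 14.5%, 6.36% higher and 8.13% lower. The shARVCF lines had 12 members higher and 6 lower, beside 45.1% of all genes, 24.4% higher and 20.7% lower, and by the median transcript 12 and 7 beside the same shares.

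Of 39 other genes of translation and its control on a list of their own, 38 were tested. Nutlin-3a raised 7 and lowered 11 in the shARVCF lines and raised 5 and lowered 10 in the control line, beside 42.8% and 57.1% of all genes called in either direction. After trend removal the counts were 8 higher and 8 lower in the shARVCF lines against 14 higher and 4 lower in the control line, and with the median transcript 9 and 7, and 16 and 4. Of all genes 45.1% and 49.9% were then called, in the same order, and 45.1% and 50.3% with the median transcript. PPP1R15A, the phosphatase subunit that reverses eIF2 alpha phosphorylation, rose by 1.41 ± 0.10 in the shARVCF lines (limma adjusted p = 3.04e-07) and by 2.31 ± 0.15 in the control line (adjusted p = 1.15e-07). MTOR and LARP1, the kinase and the RNA-binding protein that control 5′ TOP mRNAs, fell by 1.25 and 1.27 in the control line (adjusted p = 2.15e-06 and 5.5e-06), or by 0.60 and 0.67 after trend removal, still called. Their effects in the shARVCF lines were −0.14 and −0.18, not called, and MTOR was called after trend removal with the longest transcript (−0.22, adjusted p = 0.0262). EIF4EBP1, an inhibitor of eIF4E, fell by 0.84 in the shARVCF lines (limma adjusted p = 0.0288). Its value in the control line was 0.32, or −0.69 after trend removal with the longest transcript, not called. PDCD4, an inhibitor of eIF4A, rose by 0.55 in the shARVCF lines (adjusted p = 0.0144). In the control line PDCD4 was 0.16, not called, and 0.92 after trend removal with the longest transcript, called. The difference of the effects was called for neither gene in the values as deposited.

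Exons of 27 of the 57 members overlap those of another annotated gene, in 17 cases a gene of the table and in 16 of these on the other strand. No source used here gives the strand setting of the counting, so reads of such pairs cannot be told apart with certainty.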

How the data were processed

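Poly(A) RNA of 10 U2OS libraries was prepared with a stranded kit, per the labels' protocols. Reads were made with bcl2fastq 1.8.3, aligned with HISAT2 2.1.0 to hg38 and scaled with Cuffnorm 2.2.1, per the submitters' processing notes. The table deposited by the authors holds a signal per gene symbol and library, an estimated number of fragments scaled per library, and not whole counts. The annotation behind the symbols and the unscaled depth are not given in the sources used here, so no counting intervals are given.

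Values were log2-transformed with a pseudocount of 1, which understates changes of low genes. The filter kept genes that reached 10 in 3 or more libraries. A limma model (3.58.1, R 4.3.3) with 4 group means and 6 residual degrees of freedom was fitted to all 10 libraries, with variances moderated by a trend and robust weights. The spread of the lone untreated control library was taken to be that of the other groups. Two-sided p-values were adjusted over all tested genes (Benjamini-Hochberg) and called under 0.05. Errors are standard errors. The fit was tested on simulated data. Replicate numbers of the shARVCF libraries name the shRNA line and so pair them, and residuals of the same line correlated across genes at 0.275, 0.288 and 0.327 (other pairs −0.204 to −0.0862).

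Lengths and GC came from GENCODE release 29, in which all 57 members were found, and start sites from RefSeq. The trend of each library with length and GC was removed with splines of 4 degrees of freedom over 14742 genes. Members and gene lists were chosen with earlier results of these data known. All members could be named. Values per library could be given for a list of members and for the 5 highest and 5 lowest called members of a comparison. Not all of these values are printed. Alternatives were other pseudocounts, no filter, 3 other scalings, a replicate block, the trend removal, libraries left out and, added after seeing the data, trend removal by the median transcript.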

Additional observations from a re-analysis of the deposited data

Results flagged for a closer look

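The effect of nutlin-3a differed between the shARVCF lines and the control line for 27 members, by the test of the difference itself (limma adjusted p under 0.05). Of all genes 31.8% were called by that test, 19.3% higher and 12.5% lower. Values are the effect in the shARVCF lines minus that in the control line, on the log2 scale, and none of them is explained here.

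The difference was positive for 5 members. It was 1.49 for EIF4G2, 1.37 for EIF4G3, 1.11 for EEF2K, 0.98 for EIF3A and 0.84 for EIF4E.

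The difference was negative for 22. Among eIF3 genes it was −1.002 for EIF3K, −0.96 for EIF3G, −0.76 for EIF3F, −0.66 for EIF3I, −0.66 for EIF3M, −0.47 for EIF3B, −0.47 for EIF3H and −0.44 for EIF3D. Among eIF2B genes it was −0.91 for EIF2B3, −0.68 for EIF2B2, −0.61 for EIF2B4 and −0.45 for EIF2B5. Among late steps it was −1.01 for EIF5AL1, −0.88 for EIF6 and −0.76 for EIF5B. Among eIF4 genes it was −0.72 for EIF4E2, −0.67 for EIF4A1 and −0.48 for EIF4A3. For the elongation factors EEF1B2 and EEF1G it was −0.89 and −0.69, and for EIF1 and EIF1B it was −0.71 and −0.50.

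After removal of the length and GC trend 10 of the 27 calls remained with both transcript choices. The share of all genes called was then 13.5%, or 14.5% with the median transcript. Of the 27 calls 20 remained whichever 1 of the shARVCF or treated control libraries was left out. The 1 untreated control library, on which all 27 rest, could not be left out, since no difference can be had without it.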

How the results depend on the processing

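The counts of called members kept within 1.5 times of their values in all alternatives but 2. In the shARVCF lines, 14 members were called, and without 1 library the count ran from 8 (without shARVCF untreated replicate 2) to 15. The difference of the effects went from 27 members to 15 after trend removal, where the cause was not tested. Leaving out 1 library gave 28 to 31 calls in the control line, 32 to 38 under nutlin-3a, 0 without drug and 20 to 27 for the difference. Without the untreated control library no value could be had for the control line, the comparison without drug and the difference.

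With a replicate block on the shRNA line the counts were 20, 33, 38, 0 and 29, in the order shARVCF lines, control line, under nutlin-3a, without drug and difference, and no call was lost. Calls over all genes rose as well. In the shARVCF lines they went from 3147 higher and 3247 lower to 3539 and 3618, and in the control line from 3752 and 4780 to 4128 and 5111. Under nutlin-3a they went from 4829 and 3902 to 5153 and 4272. Without drug they went from 3 and 0 to 4 and 4, and for the difference from 2893 and 1863 to 3387 and 2377. The block added 6 calls in the shARVCF lines (EEF1A2, EIF1AX, EIF2B2, EIF3D, EIF3J and EIF4G3), 5 in the control line (EEF2, EIF2S2, EIF3E, EIF3L and EIF4G1), 1 under nutlin-3a (EIF4E3) and 2 differences (EIF2S2 and EIF5A), and changed no other call. It has no term for the control libraries, which it does not pair. The 5 calls added in the control line had the same effects as without the block, with smaller standard errors.

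Among members called in the values as deposited, trend removal turned the direction of EIF3A in the control line (0.084, or 0.13 with the median transcript) and of EIF4E there (0.00052), and under nutlin-3a of EEF1A2 (0.049), EIF2D (0.047), EIF4E (−0.39) and, with the median transcript, EIF1AD (0.20). It also turned the difference of the EIF4E effects (−0.34). Other members, not called as deposited, turned and were then called. In the control line these were 2 with the longest transcript, EIF2S1 (0.64) and EIF4E3 (0.94), and 5 with the median one, the same 2 with EIF1AD, EIF2A and EIF2S3. Under nutlin-3a they were 6, EEF1A1 (−0.52), EEF2 (0.27), EIF1AX (−0.46), EIF4B (−0.38), EIF4E3 (−0.86) and EIF5A2 (−0.86), and with the median transcript 4, EEF1A1, EIF2A, EIF2S3 and EIF4E3. The cause was not tested. Under all alternatives run, 5 of 14 calls in the shARVCF lines, 17 of 28 in the control line, 21 of 37 under nutlin-3a and 9 of 27 differences stayed called in 1 direction. Upper-quartile scaling made the calls of all genes for the difference 49.5% higher, against 60.8%. No group had more than 3 libraries and the untreated control had 1, so calls of small effects near the threshold remain uncertain.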
